A study of Mus musculus with 20 samples.

Results

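The genes described here build and regulate the mitotic spindle and the kinetochores, and 39 mouse genes were listed for the set by symbol. Of these, 38 had a probe set annotated to that symbol alone, out of 18193 genes with such a probe set on the array, and each was read by its probe set of highest mean signal over the 19 assigned arrays. Ccnb1, which encodes cyclin B1, had no probe set named for it alone and was not analysed here. All 38 passed the minimum mean signal of 300 that 13594 genes passed, although Bub1b, Ndc80 and Kif20a had control means below it. The members were chosen by name and not by a measured value, but with earlier results of these data known.

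Flank tissue of mice was profiled on Affymetrix Mouse Genome 430 2.0 arrays during a time course of Ad-VEGF-A164, an adenovirus that carries the VEGF-A164 isoform of vascular endothelial growth factor. The groups were control tissue of day 0 (arrays A to E, n = 5), and tissue harvested 5 days (B to E, n = 4), 20 days (A to E, n = 5) and 60 days (A to E, n = 5) after the start of the model. The series title places the work in the search for stromal signatures of gastric cancer. The comparison over time asks how these genes differed from control at each day after the vector. The labels give no strain, sex, age, vector dose or description of the control beyond its day. The controls were of day 0 only and none is described as having received a vector without VEGF-A, so the effects of VEGF-A, of the virus, of the injection and of the harvest day cannot be told apart. Whether arrays of a group came from separate animals is also unstated, and the p-values therefore reflect the spread between arrays, part of which may be technical. For 1 further array the title says day 5 while the source name says control, and it was left out of every comparison.

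Cells divide after cyclin-dependent kinase 1 and its B-type cyclins start mitosis. Kinetochores form on centromeres and bind spindle microtubules, the spindle checkpoint holds back the anaphase-promoting complex until all chromosomes are attached, and motor and bundling proteins then pull the chromosomes apart and guide the cut between daughter cells. Most of these genes are transcribed mainly in G2 and mitosis, so their RNA in a tissue is widely read as a sign of dividing cells. In angiogenic tissue, endothelial cells, pericytes, fibroblasts, macrophages and cells of the epidermis can all divide. Arrays of whole tissue cannot tell apart more dividing cells from more of these RNAs per cell.

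Many promoters of this kind hold a cell cycle genes homology region (CHR), whose core is bound by the MuvB complexes that keep such genes silent in resting cells and switch them on late in the cycle, and CCAAT boxes, which are bound by NF-Y. RefSeq promoter windows (build GRCm38.p6, 250 bases before to 50 after each listed start) were found for 35 of the 39 members, as 37 windows. None is listed for Incenp, Kif20a, Tpx2 and Aurkb. The letters TTTGAA, searched on both strands, occurred in 29 of the 37 windows (78.4%), against 12.4% of 13931 windows of the genes tested and 17.9% of all 32851 windows. CCAAT, searched on both strands, also occurred in 29 windows (78.4%), against 36.9% and 37.4%. Both motifs stood in 25 windows (67.6%), against 4.67% of windows of the genes tested. At least 2 copies of CCAAT were found in 21 windows (56.8%), against 13.2%. With the variant letters TTCGAA and TTTAAA counted as CHR too, 33 of the 37 windows (89.2%) held a form, against 21.7% of windows of the genes tested. These shares describe letters and are not evidence of binding. Neither motif contains the other, but adjacent matches may share an end base.

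The promoters below are shown because they belong to members whose values the results turn on, with Nuf2, which had the largest change on day 20, as a window with no match. Each is the stretch of 120 bases just before the listed start, 5′ to 3′ on the gene's strand, and capitals mark TTTGAA and CCAAT on either strand (TTCAAA and ATTGG on the other). Prc1 has 2 listed starts, and its stretch is shown for the start with more matches before it. At the other start, TTTGAA begins at -5 and runs past the start.
Cdk1 (chr10:69352913-69353032, minus strand): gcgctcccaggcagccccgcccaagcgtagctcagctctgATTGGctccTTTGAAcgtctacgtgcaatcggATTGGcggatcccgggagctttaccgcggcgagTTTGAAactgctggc
Ccnb2 (chr9:70421555-70421674, minus strand): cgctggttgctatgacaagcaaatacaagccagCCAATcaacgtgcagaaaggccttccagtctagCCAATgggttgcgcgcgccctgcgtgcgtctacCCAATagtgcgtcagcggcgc
Cdc20 (chr4:118437344-118437463, minus strand): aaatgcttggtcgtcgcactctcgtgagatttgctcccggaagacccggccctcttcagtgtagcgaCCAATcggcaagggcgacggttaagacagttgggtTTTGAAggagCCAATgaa
Prc1 (chr7:80294356-80294475, plus strand): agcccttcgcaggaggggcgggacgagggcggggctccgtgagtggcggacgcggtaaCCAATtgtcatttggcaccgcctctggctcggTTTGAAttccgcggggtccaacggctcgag
Top2a (chr11:99024190-99024309, minus strand): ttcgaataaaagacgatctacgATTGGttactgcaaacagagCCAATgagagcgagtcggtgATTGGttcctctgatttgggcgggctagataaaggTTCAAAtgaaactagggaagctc
Cdca5 (chr19:6084977-6085096, plus strand): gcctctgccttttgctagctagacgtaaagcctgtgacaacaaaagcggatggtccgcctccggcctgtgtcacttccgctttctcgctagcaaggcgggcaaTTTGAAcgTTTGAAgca
Nuf2 (chr1:169531465-169531584, minus strand): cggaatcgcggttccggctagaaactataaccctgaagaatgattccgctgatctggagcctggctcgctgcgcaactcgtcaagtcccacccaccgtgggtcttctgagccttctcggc
The Cdk1 stretch holds 2 copies of each motif, and that of Cdc20 holds a TTTGAA between its 2 copies of CCAAT. The Ccnb2 stretch holds 3 copies of CCAAT and no TTTGAA, which in this gene lies 5 bases past the start and again further upstream, at -167. Top2a has 3 copies of CCAAT ahead of a TTTGAA on the other strand, and Cdca5 has 2 copies of TTTGAA side by side with no CCAAT. Mad2l1, Nuf2, Knstrn and Birc5 hold neither motif anywhere in their windows, which says only that these letters are not there. Birc5 does hold the variant TTTAAA.

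Matches of TTTGAA lay mostly near the start. Taking 1 window for each gene, 29 of the 35 matches (82.9%) lay within 100 bases before to 50 bases after the start, and the median first base lay 3 bases past it. In the genes tested, 35.8% of 1487 matches lay in that stretch and the median was at -139. Of the CCAAT matches, 71.4% lay there, against 55.8%, with a median at -67 against -88. Among related lists, windows of other spindle and cytokinesis genes held TTTGAA in 78.9% of cases and other kinetochore genes in 38.7%. Windows of DNA replication genes held it in 12.0% and of APC/C subunits in 7.69%, close to the 12.4% of the genes tested. Windows of the replication genes held CCAAT in 60.0% of cases. With TTCGAA and TTTAAA counted too, the shares were 78.9% for other spindle and cytokinesis genes and 54.8% for other kinetochore genes. They were 28.0% for replication genes and 7.69% for APC/C subunits, against 21.7% of windows of the genes tested.

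**Figure D1:**
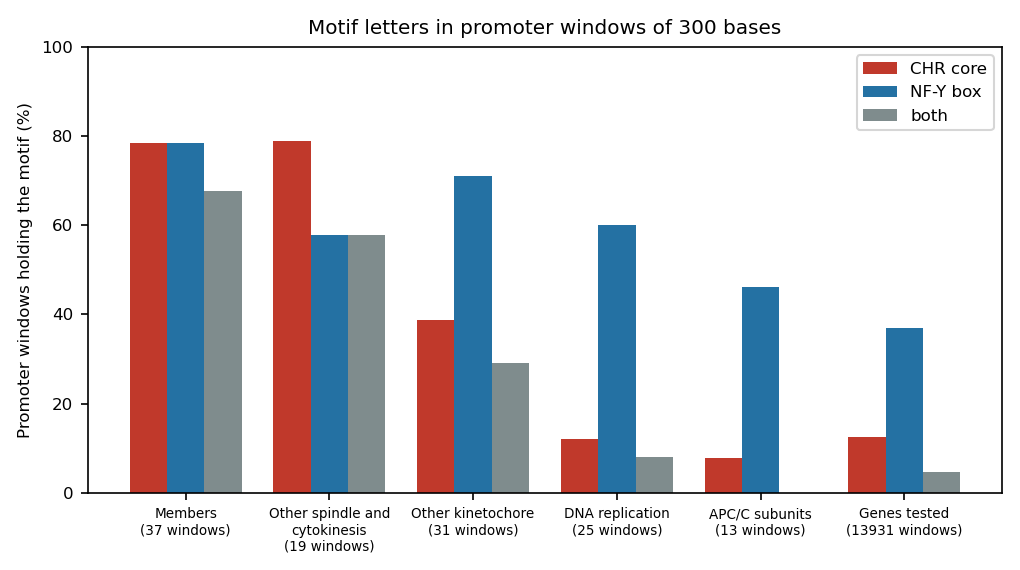
Share of promoter windows (%) that hold the CHR core (TTTGAA only), the NF-Y box (CCAAT) or both, for the members, 4 related gene lists and all genes tested. The members and the other spindle genes stand at 78.4% and 78.9% for the CHR core, while replication genes stand at 12.0%, near the 12.4% of all genes tested.

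The values are the authors' MAS5 signals, and changes are differences of log2(signal + 100) with their standard errors (SE), which understate the change of genes with low signal. Calls are limma's, at a Benjamini-Hochberg adjusted p under 0.05 over all 13594 genes tested. The tissue's own markers were present, with control means of 120105 for Acta1 of skeletal muscle, 33602 for Adipoq of fat and 5612 for Krt5 of basal epidermis. The Vegfa probe set gave 66.47 to 467 on control arrays, 3928 to 9410.0 on day 5, 7128 to 13514 on day 20 and 219 to 1076 on day 60. Whether it reads RNA of the vector as well was not tested.

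On day 5, 37 of 38 members rose and none fell, where 16.8% of all genes tested rose. Their arrays lay above every control array in all 37 (14.5% of genes tested). The median change over the 38 members was 1.86 on the log2 scale, against -0.070 over all genes tested, and 35 changed at least 2-fold. The exception was Tpx2, which was lower at an unadjusted p under 0.05 by limma. On day 20, 34 of 38 rose (15.6% of genes tested) with a median of 1.16 against -0.055, and 26 had arrays wholly above the controls (12.0% of genes tested). Aurka, Aurkb, Cdca3 and Tpx2 did not pass the test on day 20 by their chosen probe sets. On day 60, 8 of 38 rose (0.368% of genes tested) with a median of 0.63 against 0.0063, and none fell at the threshold, although 1, Kif4, was lower at an unadjusted p under 0.05. At that unadjusted threshold, 1136 of the 13594 genes tested were higher on day 60 and 1019 were lower. Every comparison against control uses the same 5 control arrays. With the array of conflicting labels counted as a control, limma called 11 rises on day 20 and none on day 60, when 4 members were higher at an unadjusted p under 0.05, as were 799 of 13594 genes tested. With that array counted as day 5, limma called 9 members on day 60, among them all 8. On that array itself 37 of 38 members lay above all 5 controls, and its Vegfa signal was 11111.1, against 66.47 to 467 on the controls. Which of its labels is right was not tested.

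**Figure D2:**
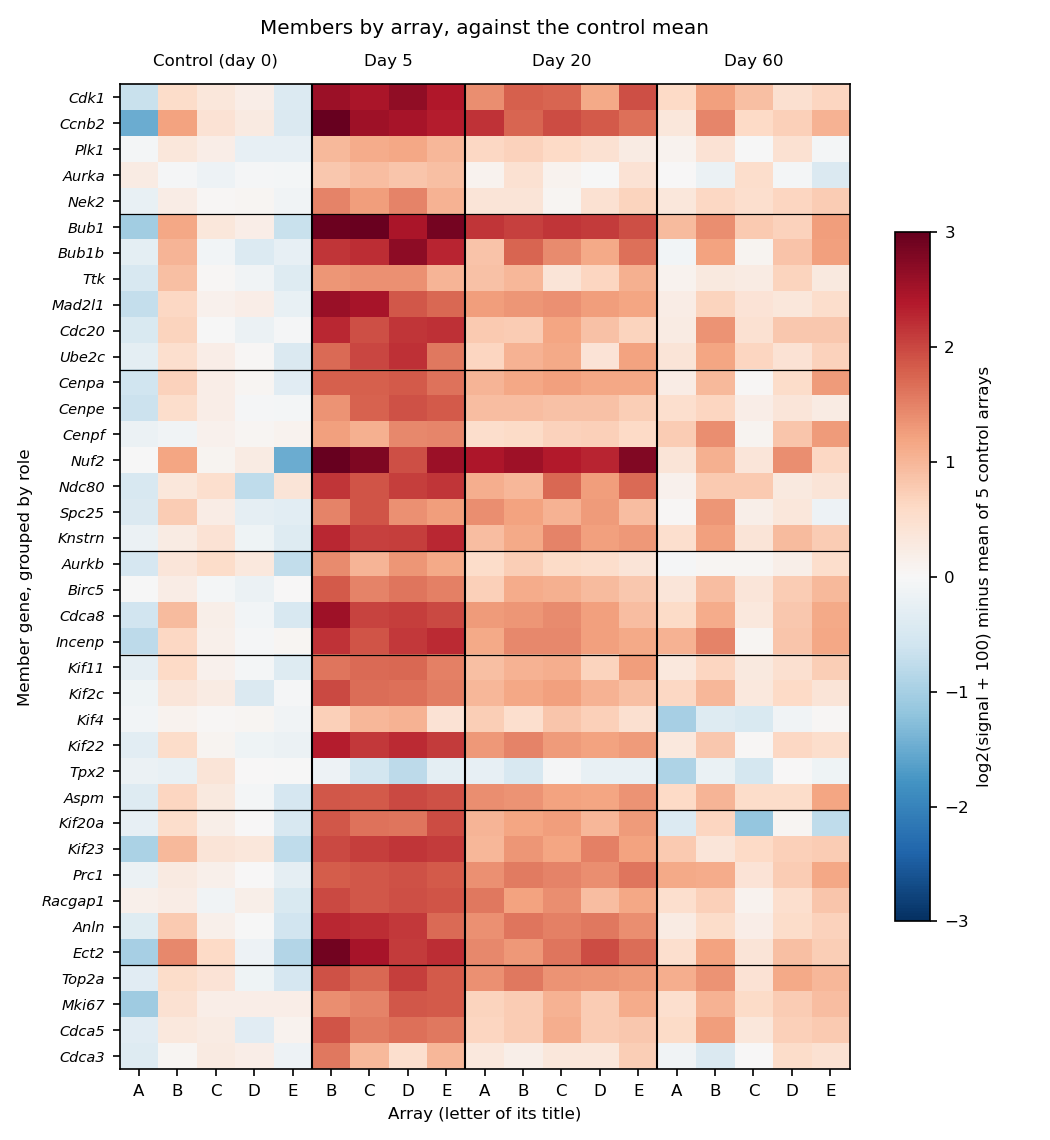
Each member (rows, grouped by role) on each of the 19 assigned arrays (columns), as log2(signal + 100) minus the mean of the 5 control arrays. Red marks values above the control mean and blue those below it. Most rows are deepest red on the 4 arrays of day 5 and paler on day 20, and Tpx2 is not red on day 5. On day 60 the arrays differ among themselves.

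Of the genes that start mitosis, all 5 measured rose on day 5 and 4 rose on day 20, and only Nek2 rose on day 60. Cdk1 encodes the kinase that drives entry into mitosis. Control arrays A to E gave Cdk1 signals of 612, 1547, 1332, 1200.2 and 749.8, and arrays B to E of day 5 gave 6570.5, 6092, 7080.1 and 5842. The arrays of day 20 gave 2891, 3806, 3682, 2389 and 4224 and those of day 60 1603, 2540.4, 2016.5, 1490.2 and 1675. The lowest day 5 array stood far above the highest control, day 20 lay between with no overlap with either, and day 60 overlapped both the controls and day 20. Cdk1 rose by 2.52 ± 0.22 on day 5 (5.73-fold, adjusted p = 1.51e-07) and by 1.60 ± 0.21 on day 20 (adjusted p = 1.33e-05). Its day 60 difference of 0.77 ± 0.21 did not pass (adjusted p = 0.0787).

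Ccnb2 encodes cyclin B2, a partner of Cdk1. Its control signals were 83.1, 1072, 591.5, 509.8 and 279.7, and its day 5 signals were 4545.5, 2884, 2713.5 and 2499.9. On day 20 they were 2173, 1606, 1868, 1729 and 1509, and on day 60 544, 1307, 673, 729.8 and 948. The controls were widely spread, with B highest and A lowest, and the day 60 arrays lay inside the upper part of the control range apart from B. The gene rose by 2.64 ± 0.37 on day 5 (6.23-fold, adjusted p = 2.17e-05) and by 1.87 ± 0.34 on day 20 (adjusted p = 0.000417). The day 60 difference of 0.83 ± 0.34 did not pass (adjusted p = 0.237).

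The 3 other entry kinases had smaller changes on day 5. Plk1, which acts at centrosomes and kinetochores, rose by 1.06 on day 5 and 0.53 on day 20. Aurka, the centrosomal Aurora kinase, rose by 0.87 on day 5 and differed by 0.22 on day 20 (adjusted p = 0.294) and by -0.022 on day 60 (adjusted p = 0.962). Nek2, a kinase that parts the centrosomes and is shown with its array values, like Birc5 and Mki67, after these were seen, went from control signals of 554, 792, 675.5, 700 and 614 to 2046, 1717, 2045 and 1465 on day 5. It gave 903, 898, 693, 945 and 1112 on day 20 and 859, 1077, 987, 1101 and 1199 on day 60. Every day 60 array lay above every control, which was not so on day 20. The Nek2 change was 1.32 ± 0.15 on day 5, 0.39 ± 0.14 on day 20 and 0.58 ± 0.14 on day 60, with adjusted p of 1.64e-06, 0.0365 and 0.0465. Days 20 and 60 of Nek2 were not told apart (difference 0.19, 95% interval -0.10 to 0.47).

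All 6 genes of the spindle checkpoint and of the anaphase-promoting complex rose on day 5 and on day 20, and limma called none on day 60, when 5 of the 6 were higher at an unadjusted p under 0.05. Bub1, a checkpoint kinase of the kinetochore, had the largest day 5 change of the whole set. Its signals were 154, 1063.5, 556, 499 and 229.9 in the controls and 3869, 3954, 2750.3 and 3687 on day 5. They were 2196, 2042, 2197, 2132 and 1888 on day 20, within a narrow range, and 902.5, 1259, 801.5, 745 and 1140.1 on day 60. Day 5, day 20 and day 60 formed a descending order with no overlap between them, and control B lay among the arrays of day 60. Bub1 rose by 2.80 ± 0.30 on day 5 (6.97-fold, adjusted p = 1.2e-06) and by 2.07 ± 0.28 on day 20 (adjusted p = 1.95e-05). On day 60 it was 1.02 ± 0.28, the largest of the set on that day, and with this spread it did not pass (adjusted p = 0.0827).

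Bub1b, which encodes the checkpoint protein BubR1, gave control signals of 106.5, 410.5, 138, 90.45 and 114.5, where B stood apart. Its day 5 arrays gave 1016, 1076, 1511 and 1135. On day 20 they gave 355, 749, 575, 457 and 688, and on day 60 137, 482, 168, 358 and 491. Control B lay above the lowest array of day 20, and on day 60 arrays B and E lay above all controls while A lay among the 4 low ones. Bub1b rose by 2.33 ± 0.31 on day 5 (adjusted p = 1.52e-05) and by 1.36 ± 0.29 on day 20 (adjusted p = 0.00169), and differed by 0.66 ± 0.29 on day 60 (adjusted p = 0.279).

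Cdc20 activates the anaphase-promoting complex at the end of the checkpoint, and Ube2c is a ubiquitin-conjugating enzyme that works with it. By their chosen probe sets, they had the largest falls of the set between day 5 and day 20. Cdc20 gave 2029, 4520.3, 2797, 2455 and 2739 in the controls and 13922.5, 11068, 12788 and 13113 on day 5. It gave 4888, 4863, 6535, 5202 and 4506 on day 20 and 3346, 7256, 3886, 5011 and 5001 on day 60. The day 20 arrays lay inside the range of day 60, and both days lay far below day 5. Cdc20 rose by 2.14 ± 0.21 on day 5 (adjusted p = 4.23e-07) and fell by 1.28 ± 0.21 from day 5 to day 20 (adjusted p = 0.00137). From day 20 to day 60 its difference was -0.12 (95% interval -0.53 to 0.29). The other tested probe set of Cdc20 rose less on day 5, by 0.89 (limma adjusted p = 0.000605). Its difference of -0.46 from day 5 to day 20 did not pass (limma adjusted p = 0.141).

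Ube2c went from 419.9, 807, 641.5, 556.5 and 371 in the controls to 1986, 2491, 2834 and 1831 on day 5. Its arrays gave 902.5, 1212, 1317, 754 and 1381 on day 20 and 739, 1361.5, 905, 770.3 and 939 on day 60. Day 5 lay above all other arrays, and the ranges of day 20 and day 60 nearly coincided. The rise on day 5 was 1.88 ± 0.22 (adjusted p = 3.01e-06) and the fall to day 20 was 0.99 ± 0.22 (adjusted p = 0.0111). Mad2l1, the checkpoint protein that holds Cdc20, rose by 2.16 on day 5 and 1.27 on day 20. Ttk, the checkpoint kinase Mps1, rose by 1.27 and 0.80.

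At the centromere and kinetochore, all 7 members rose on day 5 and on day 20 with arrays wholly above the controls each time, and Cenpf and Knstrn rose on day 60. Nuf2 is a subunit of the Ndc80 complex, which grips the microtubule end. Its control arrays gave 309, 830.3, 333, 384 and 47.46, with E lowest, and its day 5 arrays gave 3782.5, 2747, 1469 and 2327. The day 20 arrays gave 2128, 2291, 2041.5, 1914 and 2718, and those of day 60 gave 438, 762, 430.2, 978 and 530.3. Day 20 lay inside the range of day 5, and day 60 lay wholly below both. Nuf2 rose by 2.63 ± 0.37 on day 5 (adjusted p = 2.44e-05) and by 2.49 ± 0.35 on day 20 (adjusted p = 2.51e-05). Its difference between those days was -0.15 (95% interval -0.92 to 0.63), and it fell by 1.72 ± 0.35 from day 20 to day 60 (adjusted p = 0.00142).

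Ndc80 and Spc25 are further subunits of that complex. Ndc80 changed by 2.07 on day 5, 1.35 on day 20 and 0.48 on day 60. For Spc25 the values were 1.502, 1.17 and 0.35. Neither passed on day 60 (adjusted p = 0.344 and 0.509). Both fell from day 20 to day 60, by 0.87 and 0.82 (adjusted p = 0.013 and 0.0228).

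Knstrn encodes kinastrin, a partner of the outer kinetochore and the spindle. Its signals were 302, 439.7, 514, 311 and 243 in the controls and 2074.5, 1763, 1797 and 2069 on day 5. They were 759, 892, 1165, 957 and 1017 on day 20 and 542.5, 968, 495, 778 and 669 on day 60. Day 5 stood alone at the top, and on day 60 only array C fell into the control range. Knstrn rose by 2.16 ± 0.19 on day 5 (4.47-fold, adjusted p = 1.26e-07). Its rise was 1.22 ± 0.18 on day 20 and 0.77 ± 0.18 on day 60, with adjusted p of 4.08e-05 and 0.0415. Another probe set of Knstrn rose by 2.09 on day 5 (limma adjusted p = 1.82e-05) but differed by 0.19 on day 60 (limma adjusted p = 0.78).

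Cenpf encodes a large kinetochore protein of G2 and mitosis. Control arrays gave 961, 1022, 1205, 1145 and 1189 and day 5 arrays 2704, 2412, 3146 and 3216. Day 20 gave 1636.5, 1690, 1829, 1881 and 1722, and day 60 gave 1946, 3052, 1170.1, 2030.5 and 2819. On day 60 array C lay in the control range while B and E lay in that of day 5. The Cenpf change was 1.297 ± 0.19, 0.62 ± 0.18 and 0.87 ± 0.18 on days 5, 20 and 60, with adjusted p of 4.11e-05, 0.0134 and 0.0242. The day 60 to day 20 difference of 0.25 was not past its spread (95% interval -0.13 to 0.62). Cenpa, the centromeric histone, and Cenpe, a kinetochore motor, rose by 1.76 and 1.72 on day 5 and by 1.15 and 0.87 on day 20.

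The chromosomal passenger complex joins Aurora B kinase to survivin, borealin and the scaffold Incenp, and corrects faulty attachments. All 4 subunits rose on day 5, 3 rose on day 20 and Birc5 alone rose on day 60. Cdca8, which encodes borealin, gave 1652.5, 4921, 2827, 2349.8 and 1748 in the controls and 15082, 10502, 10835 and 10107.5 on day 5. It gave 6177, 6355.5, 6799, 5972 and 4814 on day 20 and 3766, 5503, 3136, 4402 and 5614 on day 60. Control B was the highest control and overlapped both later days. Cdca8 rose by 2.16 ± 0.25 on day 5 (adjusted p = 2.51e-06) and by 1.23 ± 0.23 on day 20 (adjusted p = 0.000516), and differed by 0.79 ± 0.23 on day 60 (adjusted p = 0.0952).

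Incenp signals were 2778, 7520, 5379, 4698 and 5041 in the controls and 22314, 18317, 21421 and 23122 on day 5. They were 10752, 13312, 13377, 11542.5 and 10799.9 on day 20 and 10134, 13859.8, 5052, 8737 and 11028 on day 60. On day 60 only array C lay among the controls, and B lay above every array of day 20. The rise was 2.11 ± 0.25 on day 5 (adjusted p = 3.28e-06), against 1.28 ± 0.23 on day 20 (adjusted p = 0.000364), and the day 60 difference of 0.92 ± 0.23 missed the threshold (adjusted p = 0.0601).

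Birc5, which encodes survivin, gave 948.3, 1123.5, 901.8, 828.8 and 965.5 in the controls and 3651, 2829.7, 3111 and 2884.5 on day 5. Its arrays gave 1625, 2161, 2095, 1930.4 and 1724 on day 20 and 1246, 1889.8, 1244, 1676 and 1943 on day 60. All arrays of all 3 later groups lay above every control. Birc5 rose by 1.61 ± 0.15, 0.93 ± 0.14 and 0.67 ± 0.14 on days 5, 20 and 60 (adjusted p = 1.97e-07, 5.07e-05 and 0.0233). Aurkb, the kinase of the complex, rose by 1.22 on day 5. Its day 20 difference was 0.55 (adjusted p = 0.0527) and its day 60 difference 0.15 (adjusted p = 0.75). The other probe set of Aurkb rose by 1.48 on day 5 and by 0.73 on day 20 (limma adjusted p = 0.000112 and 0.0208). It differed by 0.41 on day 60 (limma adjusted p = 0.417).

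Of the spindle motors and organisers, 5 of 6 rose on day 5 and on day 20, and Aspm alone rose on day 60. Kif22 is a chromosome-bound motor that pushes chromosome arms outward. Its signals were 4014, 7493, 5311, 4607 and 4439 in the controls and 26293, 22463, 24029 and 21874 on day 5. They were 12679, 14311, 12463, 11759 and 12342 on day 20 and 6287, 8947, 5204, 7816 and 7335.5 on day 60. The days formed 3 separate steps, and the last overlapped the controls. Kif22 rose by 2.20 ± 0.16 on day 5 (4.61-fold), with the smallest adjusted p of the set (2.46e-08), and fell by 1.74 ± 0.16 from day 5 to day 60 (adjusted p = 5.03e-07).

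Aspm encodes a spindle pole protein. The controls gave 716, 1554, 1197, 916 and 647.5 and day 5 gave 3760.5, 3717, 4093 and 3868. Day 20 gave 2669, 2581, 2328, 2309.7 and 2581 and day 60 gave 1501.5, 2054, 1449, 1447 and 2319.5. Control B lay above 3 of the day 60 arrays, while B and E of day 60 stood above all controls. Aspm rose by 1.90 ± 0.19, 1.29 ± 0.18 and 0.78 ± 0.18 on the 3 days (adjusted p = 6.31e-07, 2.8e-05 and 0.043).

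Kif4, a chromosome-bound motor that also shapes the central spindle, was as high on day 20 as on day 5 within its spread and had a day 60 mean under that of the controls. Control arrays gave 570.2, 666, 634, 636 and 561 and those of day 5 1076, 1316, 1369.7 and 855. On day 20 they gave 1092, 912, 1173, 1073 and 891, and on day 60 258, 445, 419, 567 and 631.5. All arrays of days 5 and 20 lay above them, and 3 of the 5 day 60 arrays lay below all of them. Kif4 rose by 0.80 ± 0.18 on day 5 (adjusted p = 0.00224) and by 0.66 ± 0.17 on day 20 (adjusted p = 0.00675). Its day 60 difference of -0.38 ± 0.17 against control did not pass (adjusted p = 0.284), while the fall of 1.03 from day 20 did (adjusted p = 0.000236). Kif11, the motor that separates the spindle poles, and Kif2c, which takes microtubules apart, rose by 1.64 and 1.71 on day 5 and by 0.99 and 1.07 on day 20. The other tested probe sets of Kif2c differed by -0.44, 0.61 and -0.29 on day 5 (limma adjusted p = 0.121, 0.114 and 0.611). On day 20 they differed by -0.43, 0.43 and -0.40 (limma adjusted p = 0.126, 0.261 and 0.459).

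Tpx2 activates Aurora A on the spindle, and it was the member that did not rise. Its chosen probe set gave 1139, 1091, 1727, 1305 and 1278 in the controls and 1157, 857, 704 and 1041 on day 5. It gave 1070, 901, 1266, 1095 and 1086 on day 20 and 628, 1117, 873, 1299.6 and 1174.5 on day 60. All groups overlapped. The day 5 difference was -0.44 ± 0.19 (adjusted p = 0.0742). Of the gene's 3 other probe sets, however, the first went from a mean of 436 ± 106 (SD, n = 5) in the controls to 1430.2 ± 126.5 (SD, n = 4) on day 5, a rise of 1.53 (limma adjusted p = 8.25e-07 in a fit over probe sets). The second rose by 1.03 (limma adjusted p = 0.000152), and the third differed by 0.17 (limma adjusted p = 0.46). On day 20 the first of these stood 0.59 above the controls (limma adjusted p = 0.00647), and on day 60 it stood 0.081 above them (limma adjusted p = 0.837). The probe sets of Tpx2 thus disagreed in direction, and the chosen one had the highest mean signal by the fixed rule.

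All 6 genes of the central spindle and of cytokinesis rose on day 5 and on day 20, and Prc1 alone rose on day 60. Ect2 activates RhoA at the division plane. It gave 1027, 5923, 3252, 1912 and 1109 in the controls and 16408, 12245, 9445 and 10293 on day 5. Its arrays gave 5923, 5427, 6646, 8559 and 6982 on day 20 and 3076, 5061, 2795, 4047 and 3599 on day 60. The controls spanned a wide range, from A to B, that held all 5 day 60 arrays and, at its top, 2 of those of day 20. Ect2 rose by 2.42 ± 0.36 on day 5 (adjusted p = 4.21e-05) and by 1.59 ± 0.34 on day 20 (adjusted p = 0.00141), and differed by 0.74 ± 0.34 on day 60 (adjusted p = 0.285).

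Anln encodes anillin, which anchors the contractile ring. Control signals were 977, 2297, 1443, 1279 and 823 and day 5 signals 6526, 6335, 5879 and 4407.5. On day 20 they were 3476, 4135.5, 3827, 4069 and 3522, and on day 60 1539.9, 1916, 1476, 1916 and 2129. The arrays of days 5 and 20 lay above all controls, and every day 60 array lay below control B. The rise was 2.07 ± 0.21 on day 5 (adjusted p = 5.03e-07), against 1.49 ± 0.20 on day 20 (adjusted p = 1.13e-05), and Anln fell by 1.05 ± 0.20 from day 20 to day 60 (adjusted p = 0.000675).

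Prc1 bundles the microtubules of the central spindle. It gave 863, 1211, 1102, 997 and 790.5 in the controls and 3717, 3821, 3965 and 3752 on day 5, within a narrow range. On day 20 it gave 2685, 3101, 2945, 2729 and 3169, and on day 60 2287, 2241, 1329.8, 1726.5 and 2327. The groups did not overlap at any of the 4 times, although C of day 60 came near the highest control. Prc1 rose by 1.86 ± 0.15, 1.48 ± 0.14 and 0.92 ± 0.14 on days 5, 20 and 60 (adjusted p = 6.61e-08, 3.46e-07 and 0.00962). Its other probe set rose by 2.08 on day 5 (limma adjusted p = 1.61e-06) but differed by 0.50 on day 60 (limma adjusted p = 0.281).

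The other 3 genes of this group encode the Kif20a and Kif23 motors and Racgap1, the partner of Kif23 in the centralspindlin complex. They rose by 1.76, 2.07 and 1.91 on day 5 and by 1.15, 1.24 and 1.25 on day 20. Kif20a had the largest fall of the set from day 5 to day 60, 2.09 ± 0.29 (adjusted p = 3.48e-05), but its signals were under 300 on every control and day 60 array.

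Of the 4 remaining genes, which serve chromosome structure and other parts of division, all rose on day 5, 3 rose on day 20 and Top2a and Cdca5 rose on day 60. Top2a encodes the topoisomerase that untangles sister DNA. The controls gave 1551, 2964, 2675, 1786 and 1353 and day 5 gave 7685, 6742, 8690.2 and 7364. Day 20 gave 5234, 6143, 5208, 5137 and 4965 and day 60 gave 4291, 5178, 2701, 4485 and 4068. Array C of day 60 lay below control B, and the other 4 lay above every control. Top2a rose by 1.89 ± 0.20, 1.39 ± 0.19 and 1.002 ± 0.19 on the 3 days (adjusted p = 1.14e-06, 1.99e-05 and 0.0176).

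Cdca5 encodes sororin, which holds sister chromatids together. Its signals were 606, 1019.9, 968, 611 and 865 in the controls and 3239.8, 2561, 2711 and 2573 on day 5. They were 1294, 1419.5, 1823, 1427 and 1479.6 on day 20 and 1238, 2043, 1035.5, 1376 and 1456 on day 60. All later arrays lay above all controls, and day 20 lay inside the range of day 60. The rise was 1.67 ± 0.18, 0.82 ± 0.17 and 0.74 ± 0.17 on the 3 days (adjusted p = 1.14e-06, 0.00111 and 0.0394). Its other probe set differed by 0.57, -0.13 and 0.051 on these days and passed on none (limma adjusted p = 0.0625, 0.691 and 0.938).

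Mki67, the proliferation antigen Ki-67 that coats mitotic chromosomes, gave 1952, 5819.8, 4827, 4822 and 4798 in the controls and 11140.1, 11861, 15457 and 15241 on day 5. It gave 6748, 7190, 8712, 7141 and 9187 on day 20 and 5948, 8772, 6318, 7117 and 8025 on day 60. Every later array lay above every control, control A stood apart at the bottom, and days 20 and 60 overlapped. Mki67 rose by 1.64 on day 5 and 0.87 on day 20, and its day 60 difference of 0.76 ± 0.22 did not pass (adjusted p = 0.0874). Cdca3, a trigger of mitotic entry, rose by 1.009 on day 5 and differed by 0.39 on day 20 (adjusted p = 0.171).

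**Figure D3:**
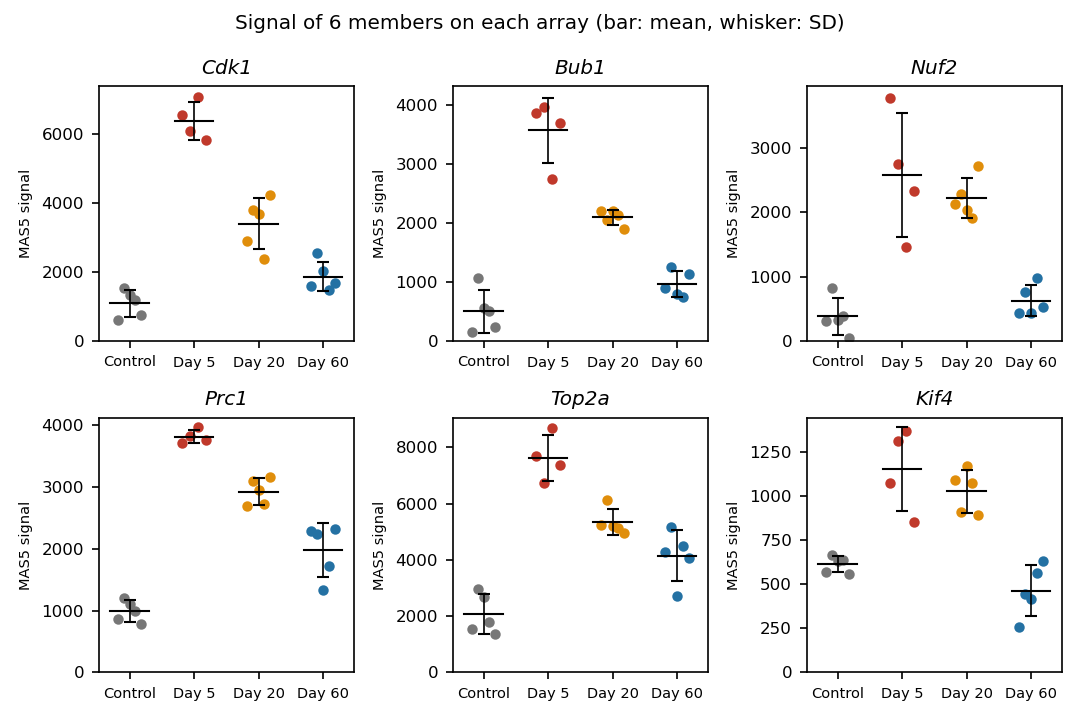
MAS5 signal (linear scale, from 0) of 6 members on each array, as points, with the mean as a bar and the SD as a whisker (5 control, 4 day 5, 5 day 20 and 5 day 60 arrays). Cdk1 and Bub1 step down from day 5 to day 20, Nuf2 and Kif4 stay near their day 5 level on day 20, Prc1 and Top2a keep day 60 means of 1982 and 4145 above control means of 993 and 2066, and the day 60 mean of Kif4 (464) is below its control mean (614).

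The decline was tested between the later groups, where the control arrays enter only through the shared estimate of the spread. From day 5 to day 20, 16 of 38 members fell and none rose (2.25% of genes tested fell and 3.05% rose), with a median of -0.68 against 0.010 over all genes tested. For 32 members every day 20 array lay below every day 5 array (5.93% of genes tested). Over the 38, the differences nearest to 0 below it were those of Kif4, Nuf2, Spc25 and Prc1, at -0.14, -0.15, -0.33 and -0.37, and Tpx2 differed by 0.20. At an unadjusted p under 0.05, 34 of 38 were lower, as were 1305 of the 13594 genes tested. The count of 16 became 9 when array B, C or D of day 5 or array D of day 20 was left out, 10 without array A of day 20 and 22 without control B, and with only the days compared in the fit it was 32.

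From day 20 to day 60, 15 of 38 fell and none rose (11.2% of genes tested fell), with a median of -0.49 against 0.027. In 14 the arrays did not overlap (8.26% of genes tested). The central spindle and cytokinesis genes had arrays of day 60 wholly below day 20 in 6 of 6 and fell in 4 of 6. In the chromosomal passenger complex and in the group of Top2a, limma called none of 4 each, and 0 of 4 in each were lower at an unadjusted p under 0.05, where 24 of the 38 were. Of the 13594 genes tested, 2254 were lower at that unadjusted threshold. The difference between role groups was not tested. From day 5 to day 60, 36 of 38 fell (12.2% of genes tested), all but Cenpf and Tpx2, with a median of -1.18 against 0.053, and 34 did not overlap (10.3% of genes tested).

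As a description, the log2 difference from control on a later day can be set over that of day 5 for the 37 members that rose on day 5. Both differences share the control arrays, so no test was made. On day 20 this share ran from 25.45% (Aurka) to 94.5% (Nuf2) with a median of 60.6%, and 28 of 37 members kept over 50%. On day 60 it ran from -47.5% (Kif4) to 67.1% (Cenpf) with a median of 30.75%. Cenpf and Top2a kept over 50%, and Aurka, Kif4 and Kif20a were below 0. Only Nek2 and Cenpf had a larger share on day 60 than on day 20.

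**Figure D4:**
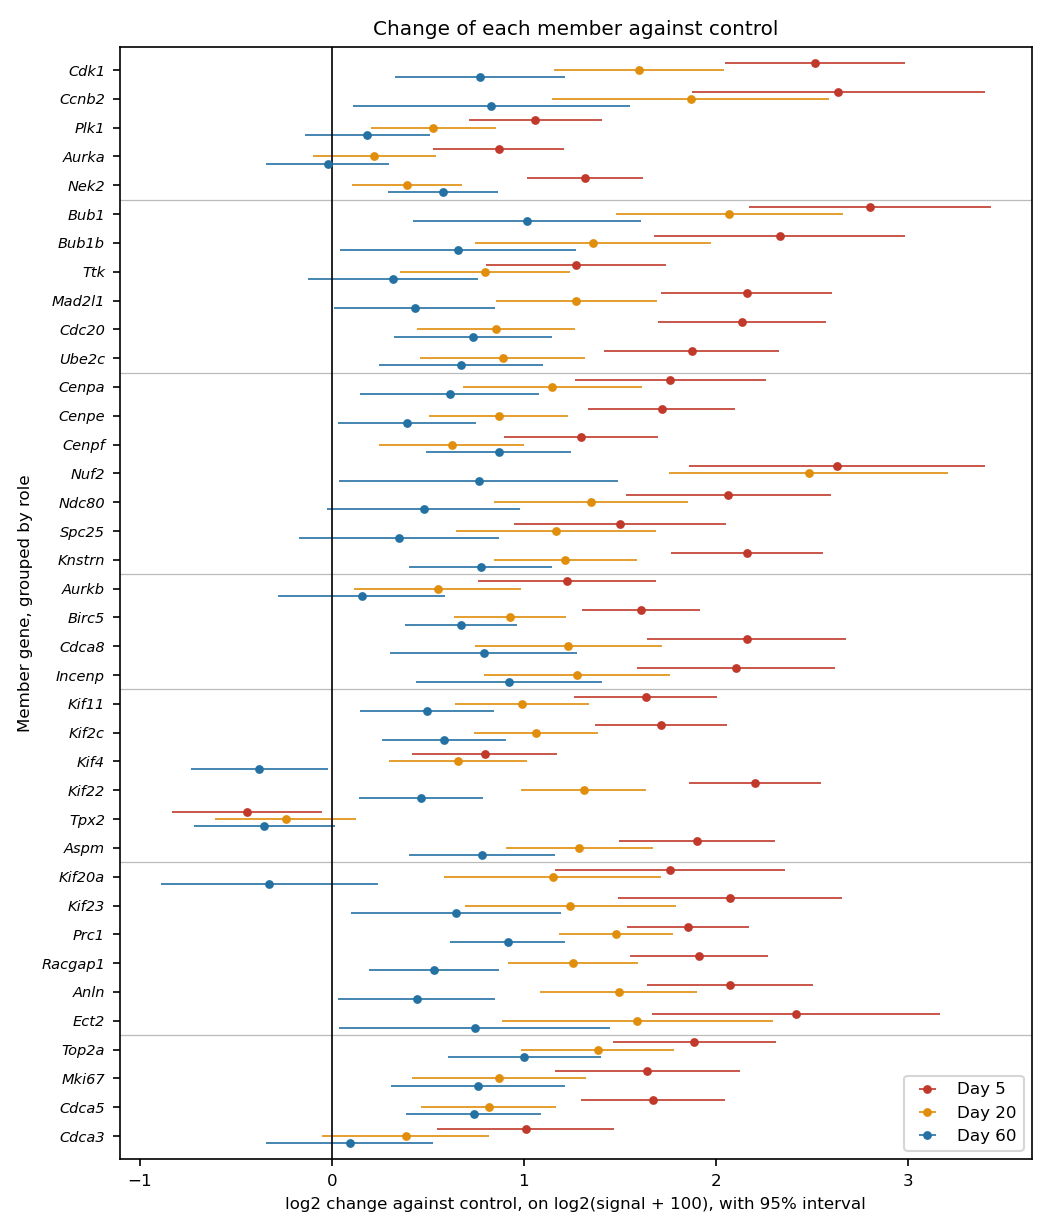
Change of each member against control on days 5, 20 and 60 (points), on log2(signal + 100), with 95% intervals from the limma fit. The day 5 points lie right of the day 20 points for every member but Tpx2, and most day 60 points lie between 0 and 1, from -0.38 (Kif4) to 1.02 (Bub1).

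The count of members called on day 60 depended on single arrays. The 8 members that rose were Nek2, Cenpf, Knstrn, Birc5, Aspm, Prc1, Top2a and Cdca5, and the arrays did not overlap for Nek2, Birc5, Prc1 and Cdca5, and for Mki67 (1.23% of genes tested). At an unadjusted p under 0.05, 28 of 38 were higher, as were 1136 of the 13594 genes tested. The mean of the members' log2(signal + 100), less the control mean, was 0.33, 0.83, 0.27, 0.58 and 0.64 on arrays A to E of day 60, and -0.42, 0.54, 0.20, -0.030 and -0.30 on the controls. Control B thus lay above A and C of day 60. The arrays of day 5 lay at 1.70 to 1.88 and those of day 20 at 1.03 to 1.16. The count of 8 became 23 without control B and 14 without array C of day 60. It became 1 without control A or E, 3 without control D, 2 without array A or E of day 60 and 4 without its array B. It was also 4 without array C, D or E of day 5 or B or D of day 20, and 5 without E of day 20, since all groups share the estimate of the spread. With only the 2 compared groups in the fit no member passed, while 20 were higher at an unadjusted p under 0.05, as were 853 of the 13594 genes tested. Prc1 passed in all 19 single omissions (adjusted p 0.000797 to 0.0406), Top2a in 16, Cenpf in 15 and Birc5 in 14, and Cdca5, Knstrn, Nek2 and Aspm in 7, 6, 4 and 4.

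Markers of other cell types and a measure of RNA quality also differed between these arrays. Summed signals of 10 markers of epidermis and hair were 26591 to 70136 in the controls with B highest, and 40290 to 76284 on day 60. The 10 include genes of differentiating cells (Krt1, Krt10 and Krt35) as well as of basal layers, so their sum is not a measure of dividing cells. Of these 10 genes limma called none on day 60, and 1 was higher at an unadjusted p under 0.05 (median 0.51), where 1136 of 13594 genes tested were. On day 5 they summed to 23778 to 28283 and limma called none either. At an unadjusted p under 0.05, 2 were lower then (median -0.72), where 3170 of 13594 genes tested were. On day 20 they summed to 6576 to 55182 and 7 of 10 were lower (median -1.42), where 14.5% of genes tested fell. Mean signals of Krt1 and Krt10 were then above control (4226 against 2801.5 and 2945 against 2296), though all 10 log2 differences were below 0. The ratio of 3′ to 5′ Actb signal, which rises when RNA is broken, was 4.15 to 9.12 in the controls, 2.95 to 7.31 on day 5, 2.60 to 7.56 on day 20 and 4.32 to 14.0 on day 60. Their part in the members' values was not tested.

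Vessel and macrophage markers were also high when the members were. The summed signal of 10 endothelial markers was 13151 to 20750 in the controls, 56984 to 69304 on day 5, 45799 to 72713 on day 20 and 15041 to 28579 on day 60. Of these 10, 9 rose on day 5 and 10 on day 20 (16.8% and 15.6% of genes tested), with medians of 2.03 and 1.92. None passed on day 60, when 1 was higher at an unadjusted p under 0.05, as were 1136 of 13594 genes tested. From day 5 to day 20 none of the 10 fell at limma's threshold. At an unadjusted p under 0.05, 2 were lower (median -0.18), as were 1305 of 13594 genes tested. The 7 pericyte markers summed to 48455 to 66529, 89900 to 130360, 217939 to 272210 and 51611 to 95068 in the same order. From day 5 to day 20, 4 of them rose further (3.05% of genes tested rose). The 10 macrophage markers with a probe set summed to 46545 to 97792, 189162 to 248855, 82216 to 186515 and 38148 to 199953. Of 9 tested, 7 rose and 1 fell on day 5, where 16.8% of genes tested rose and 17.5% fell. On day 20, 3 rose and 1 fell, where 15.6% rose and 14.5% fell. Markers of fat went the other way, with 4 of 5 tested adipocyte markers lower on day 5 (median -1.78, 17.5% of genes tested). On day 20, 4 of 5 were lower (median -2.83, 14.5%), and on day 60 1 of 5 was (median -1.46, 0.765%). Their summed signal was 122824.2 to 266373.4 in the controls, 93909.5 to 106609.2 on day 5, 89852.7 to 121611.7 on day 20 and 50027.6 to 216120.0 on day 60. Of 7 skeletal muscle markers 1 fell on day 5 (median -1.06), where 17.5% of genes tested fell. Limma called none of them on day 20 (median -0.78) or day 60 (median -0.73), with none at an unadjusted p under 0.05. Of 8 fibroblast markers, 3 rose and 2 fell on day 5 (median 0.287), and 4 rose and 1 fell on day 20 (median 0.44). Limma called none of the 8 on day 60 (median 0.25). They summed to 166860 to 264090 in the controls, 237591 to 307652 on day 5, 284397 to 463949 on day 20 and 213886 to 333801 on day 60. No marker was at 0, but the T and B cell markers Cd3g, Cd2, Cd4 and Cd79a were under 300 on every array. Others of these lists were higher, with group means of 1004 to 1303 for Cd8a, 657 to 1146 for Ms4a1 and 201 to 659.5 for Jchain. Nkg7 had means of 110.5 in the controls, 459 on day 5, 347.5 on day 20 and 226 on day 60. Which cells carried the members' RNA was not tested.

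**Figure D5:**
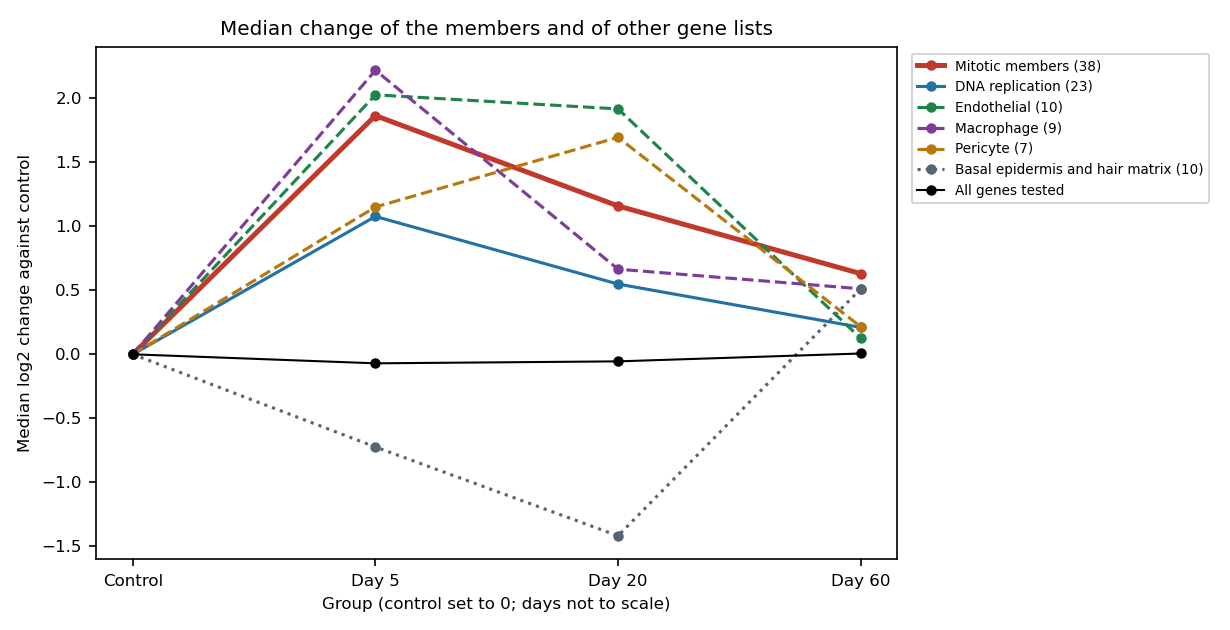
Median log2 change against control on days 5, 20 and 60 of the 38 members, of the DNA replication list, of 4 lists of cell type markers and of all genes tested; the number of genes tested in each list stands in the legend. The medians of the members are 1.86, 1.16 and 0.63, those of the endothelial markers 2.03, 1.92 and 0.13, and the pericyte markers are highest on day 20.

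Other genes of the division pathway were taken from lists of names. Of 28 other kinetochore and centromere genes tested, 22 rose on day 5 (16.8% of genes tested) and 16 on day 20, with medians of 1.05 and 0.61, and none passed on day 60 (9 were higher at an unadjusted p under 0.05). The largest day 5 changes were those of Cenpi (2.63 ± 0.33, adjusted p = 7.81e-06 by limma), of the inner kinetochore, and Zwilch (2.44 ± 0.25, adjusted p = 6.68e-07 by limma), of the checkpoint's RZZ complex. Of 20 other spindle and cytokinesis genes, 16 rose on day 5 and 13 on day 20, with medians of 1.20 and 0.79, led by Cep55 of the final cut (2.87 ± 0.31) and Hmmr of the spindle pole (2.54 ± 0.27). None passed on day 60, and 9 were higher at an unadjusted p under 0.05.

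Of 15 condensin, cohesin and separase genes, 10 rose on day 5 and 8 on day 20, with medians of 0.44 and 0.38, led by the condensin subunits Ncapg (2.05) and Smc2 (1.88). Of 21 mitotic regulators, 14 rose on day 5 and 11 on day 20, with medians of 0.97 and 0.58, led by Cdkn3, a phosphatase of the cyclin-dependent kinases (2.06), and Cks2, a kinase subunit (1.91). On day 60 none of either list passed, and 4 and 7 were higher at an unadjusted p under 0.05. The core subunits of the anaphase-promoting complex are made through the whole cycle. Of 12, 5 rose and 2 fell on day 5 (median 0.22), where 16.8% of genes tested rose and 17.5% fell. On day 20, 6 rose and 1 fell (median 0.29), where 15.6% rose and 14.5% fell. The day 5 changes ran from Anapc11 at 0.82 and Anapc10 at 0.81 to Anapc13 at -0.41 and Anapc5 at -0.55. Their activator Cdc20 and their partner Ube2c rose by 2.14 and 1.88, and Cdc20 by 0.89 on its other tested probe set.

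Lists of genes of earlier phases had smaller median changes than the members. Of 23 DNA replication genes tested, 16 rose on day 5 and 12 on day 20, with medians of 1.08 and 0.55, led by Gins2 (2.12) and Mcm6 (1.84) of the replicative helicase. On day 60 Rrm1, a subunit of ribonucleotide reductase, was the only one of them to pass (0.57 ± 0.13, adjusted p = 0.0391 by limma). From day 5 to day 20, 8 of the 23 fell, and 16 fell from day 5 to day 60. Of 15 G1 cyclins, kinases and inhibitors, 5 rose and 2 fell on day 5 (17.5% of genes tested fell), with a median of 0.23. The rises were led by Cdk6 (1.19) and Ccnd1, cyclin D1 (1.06), and the falls were of the inhibitors Cdkn1b (-0.77) and Cdkn2c (-0.63). Of 11 pocket protein and E2F genes, 4 rose, led by E2f1 (1.36) and E2f8 (1.24), and Rbl2, the pocket protein of resting cells, fell by 0.59. On day 60 limma called no gene of the APC/C, G1 and pocket protein lists, and 2, 1 and 4 were higher at an unadjusted p under 0.05, where 1136 of 13594 genes tested were.

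Other probe sets of the members give a further reading. The 38 members had 90 probe sets, of which 71 passed the minimum signal. Of the 33 tested that were not the chosen ones, 16 rose on day 5, 10 on day 20 and none on day 60 by limma (8 were higher and 1 lower at an unadjusted p under 0.05), and 4 fell from day 5 to day 20 and 12 from day 5 to day 60. Among the 8 members called on day 60, these probe sets then differed by 0.57 and 0.044 (Nek2), -0.11 (Cenpf), 0.19 and 0.198 (Knstrn) and -0.23 (Aspm). Those of Prc1, Top2a and Cdca5 differed by 0.50, 0.44 and 0.051, and Birc5 had no other probe set. None of the 33 fell on day 5 at limma's threshold (2 were lower at an unadjusted p under 0.05), but 10 of them lay below 0, against rises of the chosen probe sets of the same genes. They belonged to Cdca3, Kif2c, Cenpa, Aspm, Cenpf, Kif11, Nek2 and Spc25. The lowest value was -0.65 for Cdca3 (limma adjusted p = 0.113), followed by -0.61 for Cenpa (limma adjusted p = 0.329). That with the smallest p was -0.50 for Aspm (limma adjusted p = 0.0604), and Cenpf had -0.36 (limma adjusted p = 0.196). Of the members, 5 (Cdc20, Aurkb, Incenp, Kif2c and Kif22) were read by probe sets whose suffix marks possible cross-hybridisation and 4 (Nek2, Knstrn, Cdca8 and Prc1) by ones shared between similar transcripts. All 9 rose on day 5, with a median of 2.11, and 8 on day 20. The other 29 rose in 28 and 26 cases, with a day 5 median of 1.76. On day 60 the counts were 3 of 9 and 5 of 29.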

How the data were processed

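RNA of 20 flank tissue samples was measured on single-colour Affymetrix Mouse Genome 430 2.0 arrays. Per the labels, the authors computed background-corrected MAS5 signal intensities in GCOS 1.3 and scaled every array with a factor of 1500. The deposited values are linear intensities without read counts, so the number of arrays limits the precision. Of 45101 probe sets, 34958 had 1 gene symbol in GEO's platform annotation, 932 had several and 9211 had none. Each gene was read by its probe set of highest mean over the 19 assigned arrays, and 13594 of 18193 genes had a mean of at least 300. Values were taken as log2(signal + 100) and fitted with limma 3.58.1 in R 4.3.3 (all 4 groups in 1 fit, eBayes with a trend, Benjamini-Hochberg adjustment over all genes tested), which was tested on simulated data. Every adjusted p in the text is limma's unless another source is named.

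The members and all lists were chosen with earlier results of these data known. Array values were given for the 2 members of each role group with the largest day 5 change, the 6 largest changes called on day 60, members not called on day 5, and the 2 largest and 2 smallest falls from day 5 to day 20; 3 more were added after their values were seen. The 7 role groups are those by which the results are ordered. Of other lists, genes against their list or among its 2 largest changes were named. Promoter windows came from RefSeq (GRCm38.p6). Alternatives covered the pseudocount, the minimum signal, 2 other scalings, the choice of probe set, the groups in the fit, the trend, a block for the letter in the titles, the array with conflicting labels and each array left out.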

Additional observations from a re-analysis of the deposited data

Results flagged for a closer look

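The 38 members and their mean, each in 4 groups of arrays, gave 156 sets of values on the log2 scale. In 5 of these sets (3.205%), each of a single member, 1 array stood apart from the others of its group, where chance gives about 1 in 20. In the controls, Aurka gave 903.2 on array A against 661.7 to 724.2 on the others, Bub1b gave 410.5 on array B against 90.45 to 138.3, and Mki67 gave 1952.0 on array A against 4798.0 to 5819.8. On day 5, Ttk gave 1291.8 on array E against 1635.1 to 1691.6. On day 20, Top2a gave 6143.3 on array B against 4965.3 to 5233.9.

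The array whose title says day 5 and whose source name says control showed a signal in data outside the comparisons. On it 37 of the 38 members lay above all 5 control arrays. Their mean log2 level lay 1.88 above the control mean, where the day 5 arrays lay 1.698 to 1.88 above it. Its Vegfa signal was 11111.1, against 66.47 to 467 on the controls and 3928 to 9410.0 on day 5. The array's summed endothelial signal was 62893, against 13151 to 20750 and 56984 to 69304, and its ratio of 3′ to 5′ Actb signal was 3.10.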

How the results depend on the processing

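The 37 rises of day 5 stayed 37 in all 19 omissions of 1 array (mean log2 change 1.668 to 1.908, against 1.772), and the 34 of day 20 stayed between 33 and 35 (mean 0.987 to 1.227, against 1.091). The 36 falls from day 5 to day 60 stayed at 36 or 37, and the 15 from day 20 to day 60 ran from 12 to 20. The 16 falls from day 5 to day 20 ran from 9 to 22, and the 8 rises of day 60 from 1 to 23 (mean 0.4248 to 0.6646, against 0.5287).

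With a pseudocount of 500, the mean change was 1.385 on day 5, 0.8095 on day 20 and -0.9966 from day 5 to day 60 (against -1.243), and 25 members fell from day 5 to day 20. With the mean of all probe sets of a gene these means were 1.3, 0.7826 and -0.9611, 2 members rose on day 60 and 9 fell from day 5 to day 20. Tpx2 was then 0.5735 on day 5 (limma adjusted p = 0.0026) and -0.5019 from day 5 to day 60 (limma adjusted p = 0.0105), both opposite in direction to its chosen probe set. With the probe set of highest control mean, Cdca3 was -0.2367 on day 5 (limma adjusted p = 0.407). With only the groups compared in the fit, limma called 0 members on day 60 (20 at an unadjusted p under 0.05) and 32 falls from day 5 to day 20. With no minimum signal 4 members rose on day 60.

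With the array of conflicting labels counted as a control, the mean change was 1.459 on day 5, 0.7775 on day 20 and 0.2153 on day 60. Limma then called 11 rises on day 20, 0 on day 60 (4 at an unadjusted p under 0.05), 1 fall from day 5 to day 20 and 4 from day 20 to day 60. No other choice tried moved the count of day 20 rises by over 1.5 times. The cause of the label conflict was not tested.

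Of 27 pairs of arrays from different groups that share a letter, 11 had a correlation of their deviations over 0.1 (median 0.0238, against -0.0299 for other letters). Pairs of other letters were not counted at 0.1, so these values do not settle whether arrays were paired. With the letter as a replicate block, 5 members rose on day 60 in place of 8. Over all genes, the 50 rises of day 60 became 32 with the block, 28 with no minimum signal, 30 with arrays centred on their 75th percentile, 7 with the mean of all probe sets, 0 with only the 2 groups compared (853 at an unadjusted p under 0.05) and 0 with the unassigned array as control (799). They ran from 4 without control A to 326 without control B, and the 104 falls from 17 to 267. The falls were 67 at a minimum mean of 1000, 56 with all probe sets, 2 with only the groups compared and 0 with the unassigned array as control. With that array as control, 1269 genes fell on day 5 in place of 2373, and 1320 rose and 1034 fell on day 20 in place of 2123 and 1974. From day 5 to day 20 it left 225 rises of 415 and 125 falls of 306, where all probe sets gave 269 rises and the 2 groups alone 493 falls. Limits are the 4 or 5 arrays a group, the signals near background of Bub1b, Ndc80 and Kif20a in the controls, and probe sets that may read several transcripts.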
